A study of Rattus norvegicus with 4 samples.

Results

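Cxcl9, Cxcl10 and Cxcl11 encode chemokines that bind the receptor CXCR3. The genes are described here in the rat cochlear lateral wall after treatment with 3-nitropropionic acid (3-NP). These 3 genes, of 13810 that the arrays name, were taken by their symbols, and every probe set annotated to them was used. They had 4 probe sets in all, 1 each for Cxcl10 and Cxcl9 on the day 1 arrays and 1 each for Cxcl9 and Cxcl11 on the day 3 arrays. The genes were chosen by their 3-NP over saline signal ratios in these same arrays, so their signals and ratios are a description, with no test.

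3-NP irreversibly blocks succinate dehydrogenase, complex II of the mitochondrial respiratory chain. It was infused at 300 mM in saline into the round window niche, on the left side only, of female Sprague-Dawley rats 8 to 10 weeks old and 180 to 210 g in weight, and control rats received saline alone. The groups were 3-NP at day 1, saline at day 1, 3-NP at day 3 and saline at day 3, with 1 array each. All of these rats, controls included, had the right cochlea destroyed surgically. How many animals stand behind an array is not stated in the sources, and no difference below has a replicate check or a p-value. The labels place the tissue in the upper basal turn in one field and in the second turn without the stria vascularis in another.

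Chemokines are small secreted proteins that guide leukocytes. CXCL9, CXCL10 and CXCL11 are CXC chemokines without the ELR motif that draws neutrophils, and their shared receptor CXCR3 sits mainly on activated T cells and natural killer cells. All of them are classical interferon-induced genes. CXCL9 depends mostly on interferon gamma, whereas CXCL10 and CXCL11 also respond to type I interferons, and CXCL10 to NF-kB. Resident cells such as fibroblasts, endothelial cells and macrophages can make them. The spiral ligament, the main mass of the lateral wall, is built of fibrocytes that return potassium towards the endolymph.

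In the RefSeq annotation of the GRCr8 rat assembly, Cxcl11, Cxcl10 and Cxcl9 follow each other in this order on chromosome 14 with no annotated gene between them. The nearest named genes are Art3 on the Cxcl11 side, beyond a pseudogene, and Sdad1 on the Cxcl9 side. The 250 bases before each start, on the plus strand, are printed below from the RefSeq promoter sequences of GRCr8, because each of these neighbouring genes was high in 3-NP on the arrays that carried it. The windows are chr14:16006916-16007165 for Cxcl9, chr14:15988816-15989065 for Cxcl10 and chr14:15973478-15973727 for Cxcl11. Capitals mark matches to the motifs described after them.
Cxcl9: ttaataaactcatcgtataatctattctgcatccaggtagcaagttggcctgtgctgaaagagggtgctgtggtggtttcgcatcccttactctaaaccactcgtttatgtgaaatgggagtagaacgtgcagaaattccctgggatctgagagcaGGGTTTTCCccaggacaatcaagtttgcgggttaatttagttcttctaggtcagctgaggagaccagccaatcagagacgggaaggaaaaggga
Cxcl10: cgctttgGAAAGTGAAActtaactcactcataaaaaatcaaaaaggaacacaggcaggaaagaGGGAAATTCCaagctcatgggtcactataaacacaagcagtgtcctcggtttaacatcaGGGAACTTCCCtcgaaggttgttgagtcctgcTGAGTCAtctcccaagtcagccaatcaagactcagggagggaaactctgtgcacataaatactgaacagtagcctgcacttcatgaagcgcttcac
Cxcl11: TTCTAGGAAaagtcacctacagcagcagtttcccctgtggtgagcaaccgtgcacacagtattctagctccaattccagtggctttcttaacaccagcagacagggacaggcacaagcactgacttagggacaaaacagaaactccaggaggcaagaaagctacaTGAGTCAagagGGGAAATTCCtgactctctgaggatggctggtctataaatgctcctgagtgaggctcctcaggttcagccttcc

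The motifs were chosen after these sequences had been read, and both strands were searched. The core of the interferon-stimulated response element, GAAANNGAAA, had 1 match, upstream of Cxcl10, from 243 to 234 bases before the start. It is found in 3.41% of the same windows of 33469 RefSeq genes. The kB consensus, the NF-kB motif, matched at 187 to 178 bases before the Cxcl10 start and again at 128 to 119, where a match on the other strand overlaps it, and at 74 to 65 bases before the Cxcl11 start. Of all windows 6.33% hold it. The first Cxcl10 match and the Cxcl11 match have the same letters, GGGAAATTCC. The AP-1 motif TGANTCA, held by 6.34% of windows, matched once each before Cxcl10 (bases 96 to 90) and Cxcl11 (bases 85 to 79). The gamma-activated sequence TTCNNNGAA, held by 7.67%, matched once, at the far end of the Cxcl11 window. Cxcl9 had no match to these motifs, and 1 match, GGGTTTTCC at 94 to 86 bases, to GGGNNTTCC, a shorter kB form found in 5.09% of windows. A match of letters is a description of the sequence only.

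**Figure D1:**
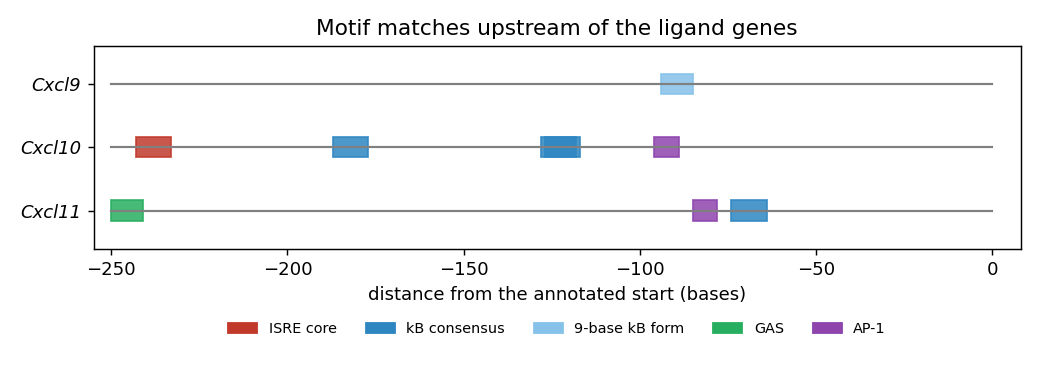
Motif matches in the 250 bases before the annotated starts of Cxcl9, Cxcl10 and Cxcl11, with distance from the start on the x axis in bases. Boxes are matches on either strand; Cxcl10 has kB consensus boxes at 187 to 178 and at 128 to 119 bases, the Cxcl11 kB and AP-1 boxes lie within the last 85 bases, and Cxcl9 has a single box.

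The deposited values are MAS5 signals per probe set on a linear scale. Day and array design coincide, since the day 1 and day 3 pairs were run on different designs that share 157 probe sets, all of them controls or a normalization set. Levels of different probe sets are not comparable, so each ratio is of 1 probe set across its own 2 arrays. Sums of signals over a marker list, given further on, are of deposited signals without centring and are led by the brightest probe sets. Median signals were 60.7 in 3-NP and 44.9 in saline at day 1, and 19.97 in 3-NP and 18.7 in saline at day 3. Signals below the 30th percentile of an array were raised to it. This floor was 22.04 in 3-NP and 17.1 in saline at day 1, and 9.85 in 3-NP and 9.22 in saline at day 3. The median gene had a log2 ratio of 3-NP over saline of 0.44 at day 1 and 0.10 at day 3, and ratios below are relative to it unless called as deposited. As a check of the tissue label, Coch, the gene of the spiral ligament protein cochlin, had signals of 5677 in 3-NP and 6548 in saline at day 3. Stria markers were above the floor too, in both arrays, for 8 of 9 probe sets at day 1.

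At day 1 the Cxcl10 signal was 4582 in the 3-NP array and 48.6 in the saline array. The saline value lay just above that array's median signal of 44.9, whereas the 3-NP value was far above its array's median. The ratio was 94.2-fold as deposited and 69.5-fold relative to the median gene, a log2 ratio of 6.12. Of 6533 measured genes Cxcl10 ranked 1 by this ratio. A gene counted as measured when a probe set of it reached the 50th percentile of the 3-NP array, the saline array or both, and its brightest such probe set stands for it.

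The Cxcl9 probe set of the day 1 design had a signal of 646 in 3-NP and 11.6 in saline. The saline signal lay below the floor of 17.1, so it gives a bound only. Cxcl9 was at least 27.8-fold higher in 3-NP relative to the median gene, a log2 ratio of 4.80 or more, and at least 37.7-fold as deposited. It ranked 8 of 6533 with this bound. Unlike Cxcl10, which passed the filter in both arrays, it passed through the 3-NP array alone.

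At day 3 another Cxcl9 probe set had a signal of 507 in 3-NP and 1.54 in saline. Again the saline signal was under the floor, here 9.22, and the gene passed through the 3-NP array alone. The bound was at least 51.3-fold relative to the median gene, a log2 ratio of 5.68 or more, at rank 2 of 3972 measured genes. Cxcl9 is the member seen on both days, and by both probe sets the 3-NP signal lay far above the array median and the saline signal below the floor. The bounds of the 2 days come from different probe sets and different floors, and their sizes were not compared.

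Cxcl11, which was on the day 3 design, had a signal of 4600 in 3-NP and 55.7 in saline. The saline value was above that array's median of 18.7, so the ratio has a measured value on both sides. It was 82.6-fold as deposited and 77.1-fold relative to the median gene, a log2 ratio of 6.27, and ranked 1 of 3972. Cxcl10 at day 3 and Cxcl11 at day 1 were not analysed here, so whether either of them changed between the days cannot be read from these arrays.

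**Figure D2:**
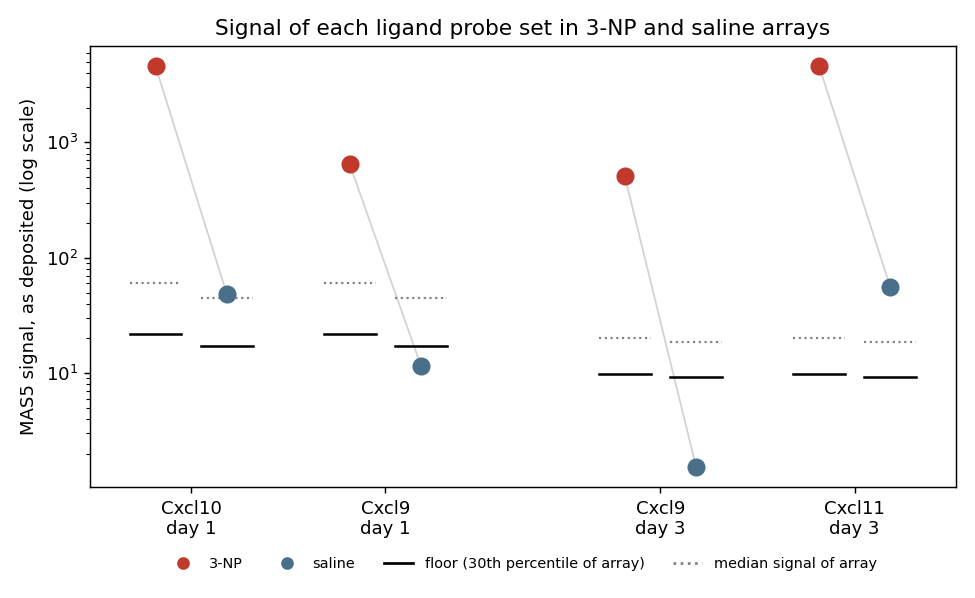
MAS5 signal as deposited, on a log axis, of each ligand probe set in its 3-NP array (red) and saline array (blue). Black bars are the floor and dotted bars the median signal of that array. The 3-NP signals run from 507 to 4600, and both Cxcl9 saline signals, 11.6 and 1.54, lie under the floor.

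A 3-NP signal 2-fold or more above saline, relative to the median gene, was found for 7.76% of all measured genes at day 1 and for 9.21% at day 3. Both ligands on each design were past that line, which follows from how the list was chosen. The highest ratios below Cxcl10 at day 1 were 5.50 for Ifit3, 5.45 for Gbp2 and 5.44 for Rsad2, all interferon-induced antiviral genes, and these were the measured genes closest to Cxcl10 in log2 ratio over the 2 arrays. The genes closest to the Cxcl9 bound at day 1 were Fabp5, a fatty acid-binding protein gene, at 4.80, Slpi, a protease inhibitor gene, at 4.96, and Ccl2, a monocyte chemokine gene, with a bound of 5.0. At day 3 the closest to Cxcl11 were Cxcl9 itself, Ccl7, another monocyte chemokine gene, at 5.27 or more, and Isg15, a ubiquitin-like antiviral gene, at 4.98, and apart from Cxcl11 the same genes were closest to Cxcl9. Since the Cxcl9 bound follows the floor, so do the genes closest to it. With the floor at the 20th percentile its day 1 value was 5.36, nearer to Rsad2 than to Fabp5. All of these ratios come from 1 pair of arrays per day.

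**Figure D3:**
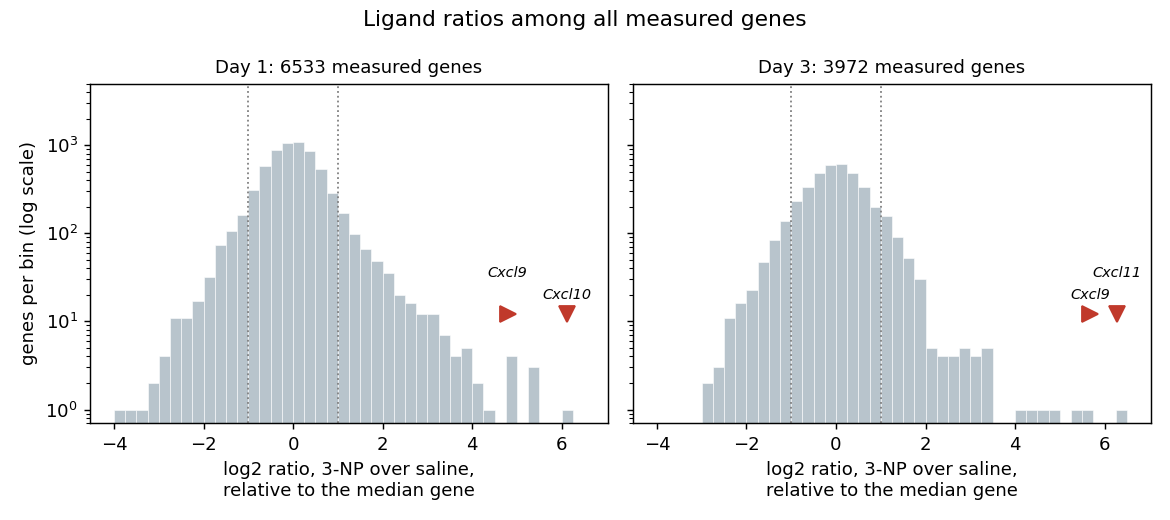
Number of measured genes by log2 ratio of 3-NP over saline relative to the median gene, in bins of the x axis, with a log y axis, at day 1 (left) and day 3 (right). Triangles mark the ligands, pointing right where the ratio is a bound, and dotted lines mark 2-fold. Cxcl10 at 6.12 and Cxcl11 at 6.27 lie at the right-hand end of their days.

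Each ligand has a single probe set per design, so no second probe set on the same array checks it. Other genes have several, and the 2 brightest that passed the filter with both signals above the floor were compared. Their log2 ratios differed with an SD per probe set of 0.35 over 733 genes at day 1 and 0.44 over 767 genes at day 3. The furthest that the 2 brightest probe sets of such a gene lay apart was 2.39 at day 1 and 2.21 at day 3. Dimmer probe sets of a gene were left out of this comparison. That spread covers probe sets and not animals, dissection or hybridisation. Of the neighbours in the genome, Art3 had 140 in 3-NP and 137 in saline at day 1, a relative log2 ratio of -0.40, and Sdad1 had 53.8 in 3-NP and 48.9 in saline at day 3, a ratio of 0.04. The day 1 probe set of Sdad1 was under the floor in both arrays. Naaa, which lies beyond Sdad1, stayed under the filter at day 1 with 27.2 in 3-NP and 37.9 in saline, a ratio of -0.92.

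The receptor of these ligands was dim. Cxcr3 had signals of 16.7 in 3-NP and 9.95 in saline at day 1, both under the floor, so it gives no ratio. Ackr3, the scavenging receptor that also binds CXCL11, had 189 in 3-NP and 78.0 in saline, a relative log2 ratio of 0.84, or 1.28 as deposited. Dpp4, the membrane peptidase that trims these chemokines at their amino terminus, was 3.07-fold lower in 3-NP, with 98.2 in 3-NP and 223 in saline. Its second probe set had 81.8 in 3-NP and 226 in saline, 3.75-fold lower. At day 3 Ackr1, a chemokine-binding receptor of venular endothelium and red cells, had 51.8 in 3-NP and 14.3 in saline, a log2 ratio of 1.76. Ackr1 passed the filter through the 3-NP array alone. The day 3 design had no probe set annotated to Cxcr3, Ackr3 or Dpp4.

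Cytokines known to induce the ligands were dim as well at day 1. The day 3 design had no probe set annotated to Ifng, Ifnb1, Tnf or Il6, so the values here are of day 1. Ifng, the gene of interferon gamma, had 0.774 in 3-NP and 6.53 in saline. Ifnb1, the gene of interferon beta, had 17.3 in 3-NP and 2.91 in saline, and both Tnf probe sets were under the floor in both arrays. All of these signals lay under the floor and give no ratio in either direction. Il6, an NF-kB target, had 84.4 in 3-NP and 6.19 in saline, at least 3.63-fold higher.

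Along the interferon gamma pathway, 10 of 12 listed genes were on the day 1 array, 6 were measured, 4 of these were at least 2-fold higher in 3-NP and 0 were lower, against 7.76% and 6.47% of all measured genes. The median of the 6 was 1.47, and 2 of them passed through the 3-NP array alone. The receptor chain gene Ifngr1 had 311 in 3-NP and 252 in saline, a ratio of -0.14 that turned to 0.30 as deposited. The other chain gene, Ifngr2, was at 0.98, or 1.42 as deposited. Jak2, the receptor-bound kinase gene, had 175 in 3-NP and 37.7 in saline, a ratio of 1.77. Irf1, the transcription factor gene induced by interferon gamma, had 791 in 3-NP and 99.1 in saline, a ratio of 2.56. Socs3, a feedback inhibitor gene, was at least 9.49-fold higher, and Ptpn2, a phosphatase gene that acts on JAK kinases, was at 1.17. Irf8, an interferon regulatory factor gene of myeloid cells, stayed under the filter with 36.7 in 3-NP and 26.7 in saline, and so did Socs1, with 43.0 in 3-NP and 2.29 in saline by its brighter probe set. At day 3, 3 of the 12 were on the array and 2 measured, Jak2 at 0.72 and Jak1 at -0.32, and 0 were past 2-fold.

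Of the type I interferon pathway, 9 of 11 listed genes were on the day 1 array and 8 were measured, with a median of 1.16. Past 2-fold, 4 of the 8 were higher and 0 lower, against 7.76% and 6.47% of all measured genes. The 4 higher genes were Usp18, a negative regulator of the receptor, at 3.85, Irf7 at 3.46, Stat2 at 2.51 and Irf9 at 1.5. Among the 4, 2 genes, Usp18 and Irf9, passed through the 3-NP array alone. STAT2 and IRF9 are subunits of the complex that binds the response element searched for above. Irf7 had 1112 in 3-NP and 74.6 in saline. At day 3 Irf9 was again higher, at 1.76 by another probe set, with Isg15 at 4.98. They were 2 of 3 measured genes, against 9.21% of all measured genes.

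Interferon gamma induces many other genes besides the ligands, and 20 of them were listed. At day 1, 11 of 20 were on the array and 9 measured, of which 8 were at least 2-fold higher and 0 lower, with a median of 2.41, and 3 passed through the 3-NP array alone. Gbp2, a guanylate-binding GTPase gene, had 1876 in 3-NP and 31.6 in saline. The immunoproteasome subunit genes Psmb9 and Psmb8 were at 3.18 and 2.56, and the peptide transporter gene Tap1 at 2.80, with a dimmer probe set under the filter that gave a bound of 0.69. At day 3 the 3 on the array, all measured, were all past 2-fold, Gbp4 at 4.23 or more and the GTPase genes Igtp and Irgm at 3.42 and 2.84. The median of all measured genes is 0 by construction on both days. Among them 7.76% were at least 2-fold higher and 6.47% lower at day 1, and 9.21% were higher at day 3.

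The NF-kB and inflammatory cytokine list had 14 of 18 genes on the day 1 array and 9 measured, at a median of 0.80. Past 2-fold, 4 were higher (7 as deposited) and 0 lower, and 2 of the 4 passed through the 3-NP array alone. Over all measured genes of day 1 the shares were 7.76% higher (17.9% as deposited) and 6.47% lower. Nfkbia, which encodes the NF-kB inhibitor and is itself an NF-kB target, had 1383 in 3-NP and 290 in saline, a ratio of 1.82. Tnfrsf1a, a TNF receptor gene, was at 2.05 and the subunit gene Nfkb2 at 1.35, whereas the subunit genes Nfkb1 and Rela were at 0.76 and 0.43. At day 3 the list had 1 measured gene, Nfkbiz, at 1.07.

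Other chemokines differ from the CXCR3 ligands in the cells they attract. The share of all measured genes at least 2-fold higher was 7.76% at day 1 and 9.21% at day 3. Of 9 further CXC chemokine genes on the day 1 array 5 were measured and 4 were at least 2-fold higher, 2 of them as bounds, and 3 passed through the 3-NP array alone. Cxcl1 and Cxcl2, neutrophil attractants in rodents, were at least 7.71-fold and 3.51-fold higher, Cxcl14 was at 1.62 and Cxcl16, the ligand of CXCR6, at 1.21. At day 3 Cxcl14 was at 0.27 by another probe set. Of 13 genes of the other chemokine classes 4 were measured at day 1 and 3 were higher, all as bounds, Ccl2 at 5.0, Ccl5 at 1.94 and Ccl20 at 1.69. All 3 passed through the 3-NP array alone, so they were counted as measured only because they were high there. Of 6 on the day 3 array, 2 were measured, and both were higher, Ccl7 at 5.27 or more and Ccl19 at 1.30. Ccl7 passed through the 3-NP array alone. Of 10 other chemokine receptor genes on the day 1 array 0 were measured, and at day 3 it was 1 of 4, Ccrl2, at 0.10.

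**Figure D4:**
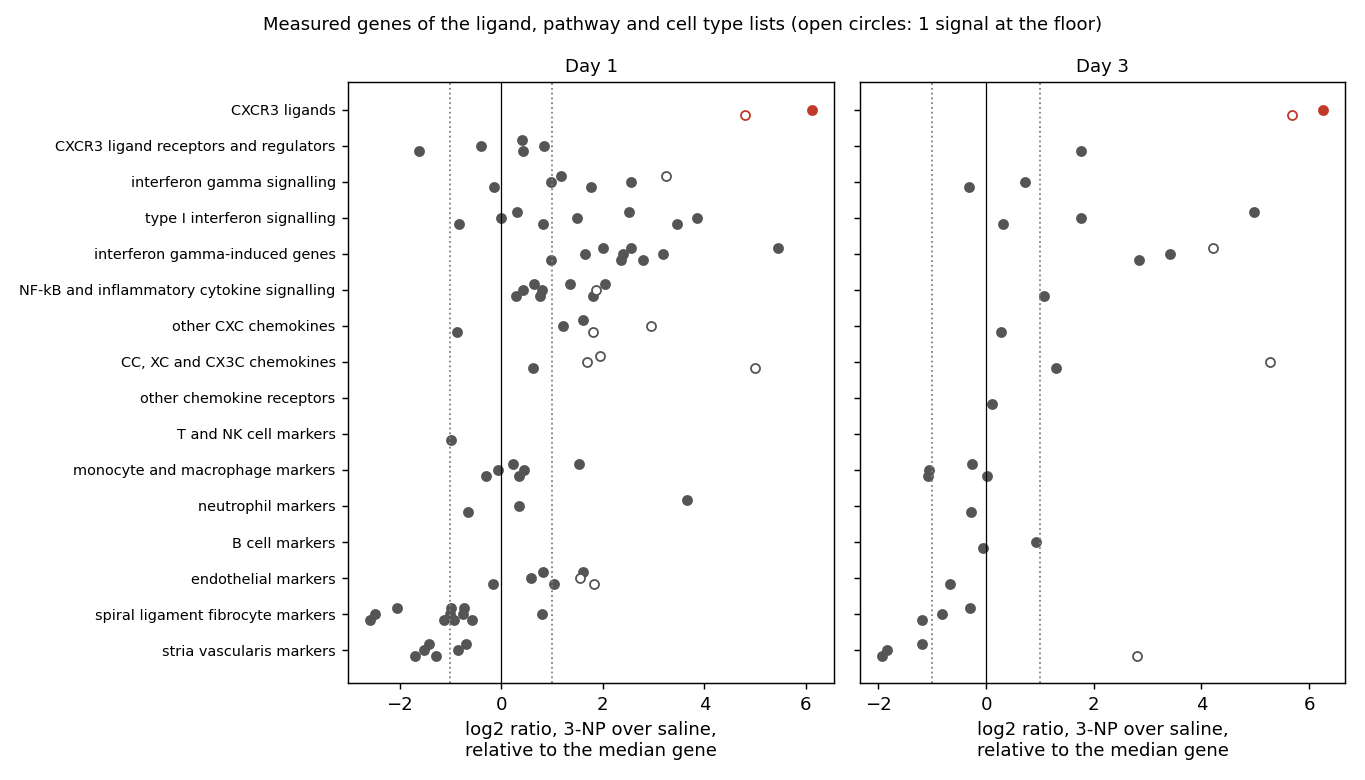
Log2 ratio of 3-NP over saline relative to the median gene, for each measured gene of the ligand list (red), the pathway lists and the cell type lists, at day 1 (left) and day 3 (right). Each circle is a gene, open where 1 signal is at the floor, and dotted lines mark 2-fold. The ligands lie at 4.80 and 6.12 at day 1 and at 5.68 and 6.27 at day 3.

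In bulk tissue, fewer cells of a type and less RNA per cell cannot be told apart, and the cells that made the ligands were not measured. Markers of the T and natural killer cells that carry CXCR3 were dim. Of 17 such genes on the day 1 array 1 was measured, and 10 had every probe set at the floor in both arrays. The signals of the 18 probe sets summed to 282 in 3-NP and 232 in saline. Cd8a had 0.975 in 3-NP and 0.987 in saline, Cd3e had 22.3 in 3-NP and 11.4 in saline, and the measured gene, Cd3g, had 38.6 in 3-NP and 56.1 in saline, a ratio of -0.98. At day 3 none of 4 such genes was measured, and their 5 probe sets summed to 12.7 in 3-NP and 18.3 in saline.

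Macrophages and endothelial cells can make the ligands, and their markers were compared for that reason. The shares of all measured genes, to be set beside the counts that follow, were 7.76% higher and 6.47% lower at day 1. At day 3 they were 9.21% higher and 8.18% lower. Of the 6533 genes measured at day 1, 17.9% were higher and 171 genes lower as deposited. At day 1, 1 of 6 measured macrophage markers was at least 2-fold higher, Cd14 at 1.54, which passed through the 3-NP array alone. The 11 probe sets of the list summed to 2568 in 3-NP and 1554 in saline, of which Lyz2, a lysozyme gene with a relative log2 ratio of 0.23, gave 1876 in 3-NP and 1183 in saline. At day 3, 0 of 4 were higher and 2 were lower, Mrc1 at -1.08 and Cd163 at -1.07 (-0.98 and -0.97 as deposited), against 8.18% of all measured genes, with sums of 169 in 3-NP and 219 in saline. Of 7 measured endothelial markers 4 were higher at day 1, Mcam at 1.84 or more, Kdr at 1.61, Plvap at 1.55 or more and Esam at 1.04. A dimmer Mcam probe set, under the filter but above the floor in both arrays, had 53.4 in 3-NP and 22.3 in saline, a ratio of 0.82. Esam was at 0.999 when centred on the normalization set. Among these endothelial markers, Mcam and Plvap passed through the 3-NP array alone. The 14 probe sets summed to 1509 in 3-NP and 690 in saline, with at most 264 in 3-NP and 218 in saline from any of them, beside a median signal of all probe sets that was also higher in 3-NP at day 1. Of 3 measured neutrophil markers 1 was higher at day 1, Lcn2 at 3.66, which epithelia and fibroblasts also make under inflammation. The others, S100a8 at -0.65 and S100a9 at 0.34, were within 2-fold. The 7 probe sets of that list summed to 2351 in 3-NP and 309 in saline, of which Lcn2 gave 2093 in 3-NP and 122 in saline. At day 3 the endothelial list had 1 measured gene, Tek, at -0.66, and the neutrophil list Csf3r, at -0.29. Of the B cell markers 0 of 1 at day 1 and 2 of 3 at day 3 were measured, and the higher of those 2 was Blnk, an adaptor gene, at 0.92. Fibrocyte markers were lower for 5 of 11 measured genes at day 1 (3 as deposited) and 1 of 3 at day 3. Among the lower ones were Car3 at -2.57 and Gjb6 at -2.48 at day 1, and Tbx18 at -1.19 at day 3. Vim went the other way at day 1, with 900 in 3-NP and 383 in saline, a ratio of 0.79. As deposited Vim was at 1.23, the 1 fibrocyte marker at least 2-fold higher. Stria markers were lower for 4 of 6 at day 1 (2 as deposited) and 3 of 4 at day 3, with Lrp2 at -1.69 at day 1 and Bsnd at -1.93 at day 3. Atp1b2, counted among the lower ones at day 3 at -1.19, was at -0.81 under quantile scaling. The other stria marker of day 3, the melanosome gene Tyrp1, was higher in 3-NP, with 69.4 in 3-NP and 4.62 in saline, at least 7.02-fold, and it passed through the 3-NP array alone. Its dimmer probe set was at 0.69. The part of these cell types in the ligand signals was not tested.

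The ligand ratios were computed under 7 other scalings and floors. The Cxcl10 ratio ranged from 6.04 to 6.56 and the Cxcl11 ratio from 6.24 to 6.60. The Cxcl9 value moved with the floor, between 4.07 and 5.36 at day 1 and between 5.13 and 8.26 at day 3. Under the 4 scalings with the floor kept, Cxcl10 and Cxcl11 stayed at rank 1 of their days. With the floor at the 20th percentile Cxcl9 at day 3 passed Cxcl11, which was then at rank 2. With no floor both Cxcl10 and Cxcl11 were at rank 4 of their days, and Cxcl9 at day 3 at rank 1.

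**Figure D5:**
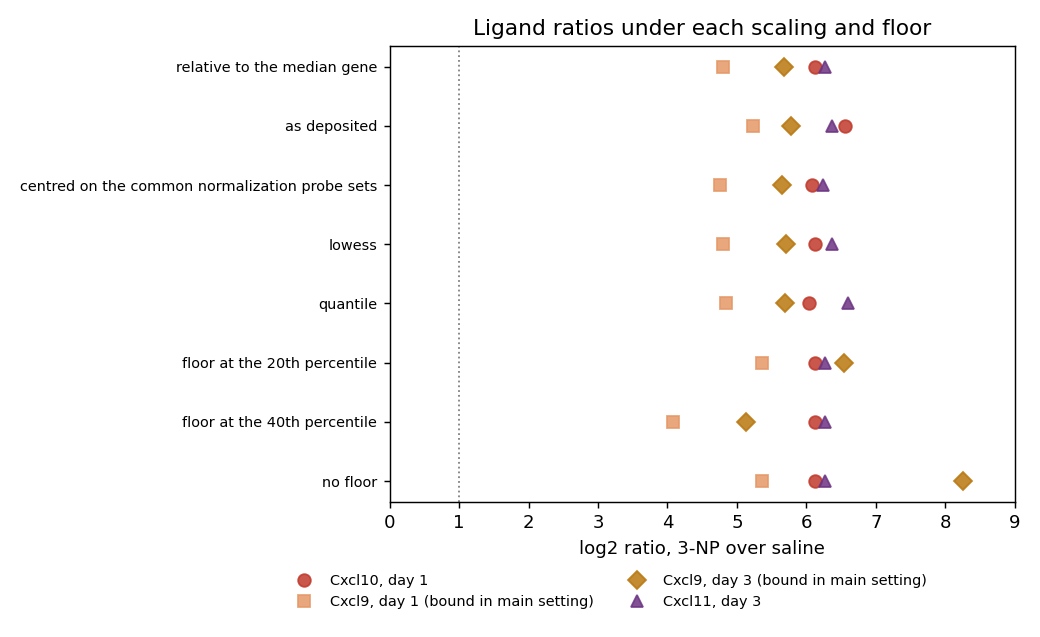
Log2 ratio of 3-NP over saline of each ligand probe set (x axis) under the main setting and each other scaling or floor (rows). Points are single values without error, the legend names the probe sets whose main value is a bound, and the dotted line marks 2-fold. All points lie between 4.07 and 8.26.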

How the data were processed

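Gene expression was measured on 4 Affymetrix arrays, 1 per group, from cRNA made from 6 µg of total RNA, per the labels' protocols. The values the authors deposited are signal intensities per probe set, and the submitters' processing notes name MAS5 as the tool. Its scaling target and detection calls, and the array build, are not stated in those sources. Probe sets were named from the platform annotation, updated by gene identifier to RefSeq genes of GRCr8. At day 1, 12783 of 15866 non-control probe sets had 1 symbol, 312 several and 2771 none; at day 3, 7564, 100 and 7612 of 15276.

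Signals were floored at each array's 30th percentile, log2 ratios were centred on the median measured gene of the day, and genes whose relative log2 ratio reached 1 in either direction were counted as 2-fold higher or lower. Computation used Python 3.11.15, pandas 2.3.3 and statsmodels 0.14.6, and was tested on simulated data. Named genes were the ligands, up to 4 members per list past 2-fold (otherwise the member furthest from 0), a panel of 22 pathway and marker genes and the 3 genes closest in ratio to each ligand. The other genes named were chosen after their values were seen. The ligands, the 15 other lists and the tests were chosen with earlier results of these data known. With 1 array per group no test was possible. The alternatives were 4 scalings, 3 floors and, for counts, 2 filters and the median over probe sets.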

Additional observations from a re-analysis of the deposited data

How the results depend on the processing

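As deposited, with no centring, the log2 ratio at day 1 was 6.56 for Cxcl10 and 5.23 or more for Cxcl9. A floor at the 20th percentile, or no floor, left the Cxcl9 saline signal of day 1 unraised, at 5.36, and a floor at the 40th percentile gave a bound of 4.07. At day 3 the Cxcl9 value was 6.54 with the 20th, 5.13 with the 40th and 8.26 with no floor. These Cxcl9 values follow the floor by construction. At day 1, 507 genes were past 2-fold higher in 3-NP and 423 past 2-fold lower; as deposited the higher ones numbered 1169 and the lower ones 171. With the filter at the 75th percentile, which tests fewer genes, the higher ones numbered 289 at day 1 and 209, against 366, at day 3. The other 57 of 68 values of the ligands, of these counts and of the pathway totals moved by less than the probe set SD or 1.5 times, and none changed sign. Of 600 counts per list, 14 moved by more than 1.5 times. No paired analysis was possible because each group has 1 array. Depth in the sense of reads does not apply; what limits the ligands is the dim saline signal, which leaves Cxcl9 as a bound, and the single array per group, which leaves every ratio without an error between animals.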

Other observations

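The motif search was extended to the promoters of the other lists, as a description. The interferon-stimulated response element core was present in 10 of 16 windows of interferon gamma-induced genes, 2 of 8 of the type I interferon pathway and 0 of 9 of the other CXC chemokine genes, beside 3.41% of all windows. The kB consensus was present in 8 of 16 windows of the NF-kB list, 5 of 9 of the interferon gamma pathway and 3 of 9 of the other CXC chemokine genes, beside 6.33% of all windows. The windows of the lists are those the promoter table holds, and no test was made of these counts.

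Cxcl12, a CXC chemokine gene of stromal cells, was named after its values were seen because its probe sets disagreed. Its brightest probe set had 148 in 3-NP and 199 in saline at day 1, a relative log2 ratio of -0.86, and its other probe sets gave -1.04 and 0.97. Ccl3 and Ccl4, macrophage inflammatory protein genes also named after their values were seen, stayed under the filter at day 1, with 41.9 in 3-NP and 2.97 in saline for Ccl3 and 53.8 in 3-NP and 26.6 in saline for Ccl4.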
